A study of Mus musculus with 14 samples.

Results

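The genes examined here encode the enzymes that write N6-methyladenosine (m6A) on RNA and the proteins that hold the main writer complex together. They were taken by symbol: Mettl3, Mettl14, Wtap, Virma, Rbm15, Rbm15b, Zc3h13, Cbll1 and Mettl16. All 9 were found among the 36335 named genes of the count tables. METTL3 is the catalytic subunit and METTL14 its RNA-binding partner. WTAP, VIRMA, ZC3H13 and the ubiquitin ligase CBLL1 (also called HAKAI) form the regulatory part of the complex, and RBM15 and RBM15B are paralogous RNA-binding adaptors that bring it to its targets. METTL16 is a separate enzyme that works alone, on the U6 snRNA and on hairpins of the Mat2a mRNA. In embryonic stem cells m6A is known to mark mRNAs of pluripotency regulators and to favour their decay.

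The study measured mouse E14 embryonic stem cells that carried a Mettl3 knockout (Mettl3-KO, 8 libraries) and WT E14 cells (6 libraries). Both genotypes were kept on gelatin in FBS/LIF medium with 200 nM INK128, an mTOR inhibitor that puts the cells in a paused state, for 2 weeks. Both then received 100 µM S4U, a uridine analogue that is read as C after alkylation, for 12 h, and were collected 0, 1, 3 and 8 h after its removal. Mettl3-KO had 2 libraries at each time, and WT had 1, 2, 1 and 2. The source names of the 2 Mettl3-KO samples at 8 h differ from the cell line in their other labels, E14, so results that rest on them are also given without both, an alternative added after the data were seen. The labels say neither how the Mettl3 allele was made nor how many clones or cultures the libraries came from, so every p-value measures the spread between these libraries, which may be technical.

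Each library gave a total count and a T>C conversion count per gene from 3′ end tags. In 12 libraries (7 Mettl3-KO, 5 WT) the total was between 6108102 and 26654217. Mettl3-KO 3 h replicate 2 had 602297 and WT 1 h replicate 2 had 49154, and they held between 2 and 191 and between 0 and 9 counts of a member gene. These 2 libraries also stood apart in label, with conversions at 6.90% and 8.43% of their totals, where the deep library of the same genotype and time had 18.5% and 30.8%. Tests and CPM values below rest on the 12 deep libraries unless all 14 are named. Summed stem cell markers (8 genes) were at 2570 to 4720 CPM in Mettl3-KO and 3640 to 4660 CPM in WT, with Dppa5a the lowest of the 8. Summed markers of primitive endoderm (5 genes) were at 1.89 to 3.91 CPM in Mettl3-KO and 19.3 to 27.8 CPM in WT. Those of trophoblast (4 genes, Elf5 at 0) were at 5.79 to 12.8 CPM in Mettl3-KO and 11.4 to 21.4 CPM in WT, and those of fibroblasts (5 genes, Postn at 0) at 3.82 to 9.21 CPM in Mettl3-KO and 9.13 to 20.0 CPM in WT. Their part in the differences below was not tested. The Y-linked gene Ddx3y stood at 137 to 218 CPM in Mettl3-KO and 1.098 to 4.013 CPM in WT, so the lines differ in more than Mettl3 and the effects of the 2 differences cannot be told apart.

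Mettl3 RNA was lower in Mettl3-KO and RNA of most regulatory subunits was higher, while that of Mettl14 stood near its WT level. Of the 9 genes, 5 were higher (Rbm15, Zc3h13, Wtap, Virma and Cbll1), 1 was lower (Mettl3) and 3 did not pass the test (Mettl14, Rbm15b and Mettl16). The test was edgeR's quasi-likelihood test of genotype with chase time in the model, at a Benjamini-Hochberg adjusted p under 0.05. By the same rule 21.9% of the 14579 tested genes were higher and 19.3% lower. The median log2 change of the 8 genes other than Mettl3 was 0.71, against 0.03 over all tested genes. With all 14 libraries 3 genes were called higher (Wtap, Virma and Rbm15), against 12.7% of tested genes, and Mettl3 was lower, as were 9.48% of tested genes. In bulk RNA a change in the cells that express a gene and a change of RNA per cell cannot be told apart.

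Mettl3 (chromosome 14, 52294841 to 52308741) had 1.46 and 1.72 CPM at 0 h, 2.48 and 1.81 at 1 h, 2.11 at 3 h, and 1.27 and 1.25 at 8 h in Mettl3-KO. WT libraries had 43.0 CPM at 0 h, 78.5 at 1 h, 56.2 at 3 h, and 32.3 and 24.1 at 8 h. Every Mettl3-KO library was below every WT library, as for 10.6% of tested genes, and the Mettl3-KO mean was 3.70% of the WT mean. The log2 change was -4.77 (SE 0.21, adjusted p = 2.19e-11). These levels rest on 14 to 55 counts per Mettl3-KO library and 151 to 783 per WT library. The labels do not say which part of the gene was deleted, and a 3′ tag outside that part could still be counted, so the level checks the labels and not the loss of protein. In RefSeq (GRCm38.p6, the source of all positions here) the gene overlaps Tox4, and whether the counting used the strand is not given in the sources used here.

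Mettl14 (chromosome 3, 123368295 to 123385990), the partner of METTL3 in the catalytic dimer, had a mean of 40.2 CPM with an SD of 7.20 over 7 Mettl3-KO libraries, and 39.4 CPM with an SD of 13.6 over 5 WT libraries. On the log2 scale the difference was 0.02 (SE 0.23, adjusted p = 0.958). The groups overlapped, with 25.9 to 46.9 CPM in Mettl3-KO and 18.0 to 54.9 in WT. Mettl14 lay above WT at 1 of the 4 chase times, with ratios of the means between 0.88 and 1.22.

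**Figure D1:**
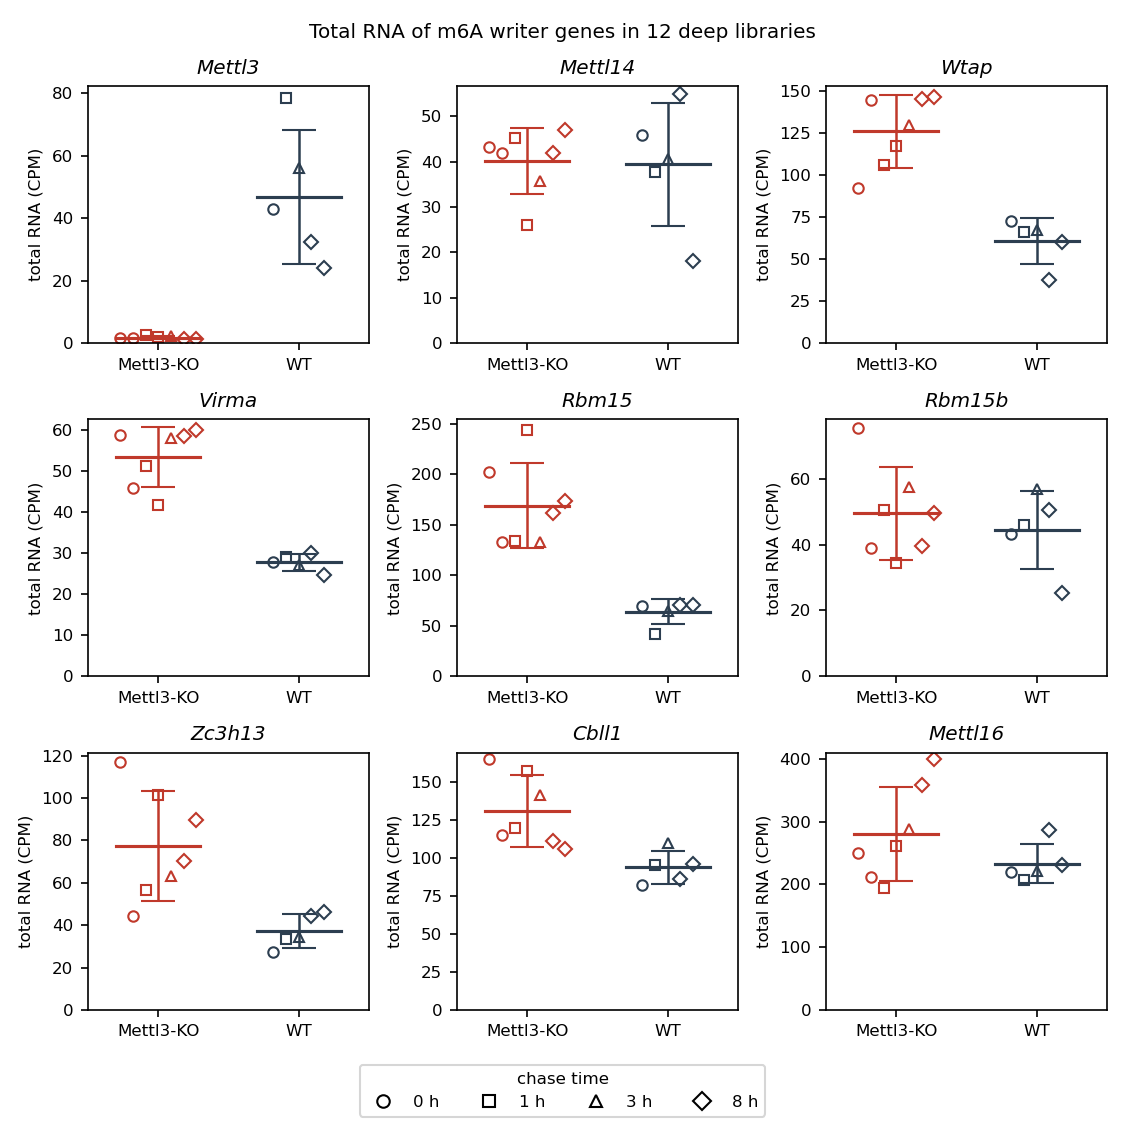
Total RNA of each gene in CPM (y axis, from 0) in the 7 deep Mettl3-KO and 5 deep WT libraries, with one symbol per chase time, the mean (horizontal line) and 1 SD (bars). Wtap, Virma and Rbm15 lie above every WT library in every Mettl3-KO library, Mettl3 lies below, and the other 5 genes overlap.

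Wtap (chromosome 17, 12966799 to 12992543), the scaffold that binds the METTL3 and METTL14 dimer, had 92.0 and 144 CPM at 0 h, 106 and 117 at 1 h, 130 at 3 h, and 145 and 147 at 8 h in Mettl3-KO. WT libraries had 72.8 CPM at 0 h, 65.8 at 1 h, 67.1 at 3 h, and 37.4 and 60.3 at 8 h. Every Mettl3-KO library was above every WT library, which was so for 12.7% of tested genes. The log2 change was 1.06 (SE 0.19, adjusted p = 0.000269), and 0.93 (SE 0.30, adjusted p = 0.0383) with all 14 libraries. The ratio of the means was 1.62 at 0 h and 2.99 at 8 h, but the change of this difference over the chase did not pass, as given below.

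Virma (chromosome 4, 11485958 to 11551143), the largest scaffold of the complex, which links it to 3′ end processing, had 58.7 and 45.9 CPM at 0 h, 51.2 and 41.6 at 1 h, 58.0 at 3 h, and 58.5 and 60.1 at 8 h in Mettl3-KO. WT libraries had 27.8 CPM at 0 h, 29.0 at 1 h, 27.1 at 3 h, and 30.1 and 24.7 at 8 h. WT libraries spanned 24.7 to 30.1 CPM, and all Mettl3-KO libraries lay above them. The log2 change was 0.96 (SE 0.16, adjusted p = 0.000136), and 0.90 (SE 0.25, adjusted p = 0.0184) with all 14 libraries.

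Of the adaptor paralogs, Rbm15 was higher and Rbm15b did not pass. Rbm15 (chromosome 3, 107305511 to 107334460) had 202 and 133 CPM at 0 h, 135 and 244 at 1 h, 134 at 3 h, and 162 and 173 at 8 h in Mettl3-KO. WT libraries had 70.1 CPM at 0 h, 42.4 at 1 h, 64.9 at 3 h, and 70.9 and 71.1 at 8 h. No Mettl3-KO library came down to the WT range. The log2 change was 1.40 (SE 0.20, adjusted p = 3.63e-05), the highest of the 9 genes, and 1.42 (SE 0.27, adjusted p = 0.00184) with all 14 libraries. Rbm15b (chromosome 9, 106880928 to 106887075) overlapped, with 34.3 to 75.4 CPM in Mettl3-KO and 25.4 to 56.8 CPM in WT. Its log2 change was 0.15 (SE 0.21, adjusted p = 0.602). The ratio of Rbm15 to Rbm15b counts within a library does not depend on library scale. It was 2.33 to 7.11 (median 3.41, n = 7) in Mettl3-KO and 0.925 to 2.81 (median 1.40, n = 5) in WT. This ratio was chosen after the values were seen and was not tested. WT 8 h replicate 2, with 159 Rbm15b counts, was the WT library whose ratio reached into the Mettl3-KO range.

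Zc3h13 (chromosome 14, 75284306 to 75344433), a zinc finger protein that helps keep the complex in the nucleus, had 117 and 44.1 CPM at 0 h, 56.7 and 101 at 1 h, 63.1 at 3 h, and 70.3 and 89.9 at 8 h in Mettl3-KO. WT libraries had 27.4 CPM at 0 h, 33.3 at 1 h, 34.3 at 3 h, and 44.4 and 46.4 at 8 h. Of the 7 Mettl3-KO libraries 6 lay above the highest WT library, and 0 h replicate 2 did not. The 2 Mettl3-KO libraries at 0 h thus differed more from each other than 0 h replicate 2 did from WT. The log2 change was 1.097 (SE 0.24, adjusted p = 0.00149), and it did not pass with all 14 libraries (1.00, SE 0.36, adjusted p = 0.0619).

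Cbll1 (chromosome 12, 31484829 to 31500676) had a mean of 131 CPM with an SD of 23.7 over 7 Mettl3-KO libraries, and 93.7 CPM with an SD of 10.8 over 5 WT libraries. The ubiquitin ligase it encodes, HAKAI, is tied to the rest of the complex through ZC3H13. Of the Mettl3-KO libraries 6 lay above the highest WT library, and 8 h replicate 2 (106 CPM) lay below WT 3 h (110 CPM). The log2 change was 0.46 (SE 0.16, adjusted p = 0.0273), the smallest of the called differences. It did not pass with all 14 libraries (0.41, SE 0.21, adjusted p = 0.181). It also did not pass without WT 0 h, WT 1 h replicate 1, WT 3 h, Mettl3-KO 3 h replicate 1 or Mettl3-KO 8 h replicate 1, with a range of 0.35 to 0.49 on the log2 scale over all single libraries left out. Without both Mettl3-KO 8 h libraries it stood at 0.55 (SE 0.21, adjusted p = 0.0586), and the other 5 called genes passed.

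Mettl16 (chromosome 11, 74770815 to 74826855) had a mean of 281 CPM with an SD of 75.0 over 7 Mettl3-KO libraries, and 233 CPM with an SD of 31.3 over 5 WT libraries. Its log2 change was 0.31 (SE 0.15, adjusted p = 0.112). The 2 Mettl3-KO libraries at 8 h, at 359 and 399 CPM, were the highest, and 3 of 7 Mettl3-KO libraries lay above the highest WT library (287 CPM). Cbll1, Mettl16, Rbm15, Rbm15b and Zc3h13 each overlap another annotated gene in RefSeq (GRCm38.p6), and tags of the 2 genes at such a place could be mixed if strand was not used.

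**Figure D2:**
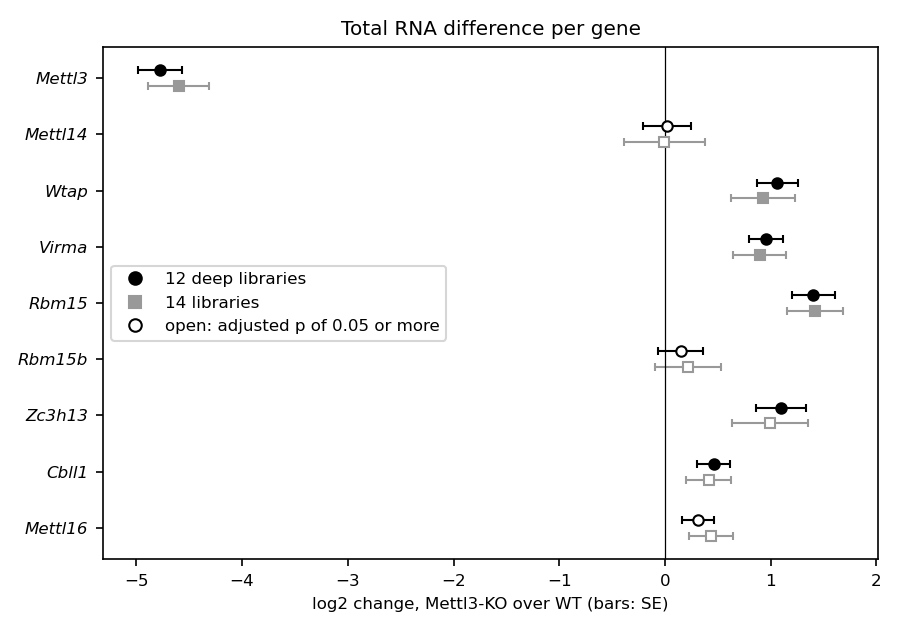
Log2 change of total RNA, Mettl3-KO over WT, for each gene with its SE, from the 12 deep libraries (black circles) and from all 14 (grey squares). Filled symbols passed at an adjusted p under 0.05: 6 genes in the deep libraries and 4 in all 14.

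In the order of the 8 group means, the 4 Mettl3-KO groups took the top places for Wtap, Virma, Rbm15 and Zc3h13. The share of all tested genes with such an order was not counted, so nothing particular to these genes is read from it. By the stricter rule of every Mettl3-KO library above every WT library it was 12.7%, and Zc3h13 did not meet that rule. The order of the Mettl3-KO groups among themselves is not resolved, since the 2 Wtap libraries at 0 h alone (92.0 and 144 CPM) span the means of the 3 h and 1 h groups (130 and 112 CPM). For Cbll1, WT 3 h (110 CPM, 1 library) stood above Mettl3-KO 8 h (108 CPM, 2 libraries) and inside the range of those 2 libraries (106 to 111 CPM). For Mettl16 the order ran from Mettl3-KO 8 h (379 CPM) through Mettl3-KO 3 h (289 CPM) to WT 8 h (259 CPM). For Mettl14 and Rbm15b the genotypes were mixed.

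Total RNA of the writer genes did not differ detectably in its course over the chase. None of the 9 passed the interaction of genotype with hours by edgeR or DESeq2, and 0.549% of tested genes did by edgeR. At an unadjusted p under 0.05 there was 1, Wtap. Wtap had the smallest adjusted p of the 9, at 0.12 log2 per hour (SE 0.04, adjusted p = 0.198). Within Mettl3-KO, Mettl16 rose by 0.09 log2 per hour (SE 0.02, adjusted p = 0.0349), as did 2.15% of tested genes. This did not pass with all 14 libraries (adjusted p = 0.888) or without both Mettl3-KO 8 h libraries (0.11, SE 0.09, adjusted p = 0.999), and its difference from WT was 0.06 (SE 0.04, adjusted p = 0.466). In WT 0 genes of the whole table passed by edgeR, with 1470 at an unadjusted p under 0.05, and Mettl3 stood at -0.145 log2 per hour (SE 0.05, adjusted p = 0.344).

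At the end of the S4U pulse each writer gene had a smaller share of converted counts in Mettl3-KO than in WT, as the libraries did as a whole. The share is conversion counts over total counts of the same gene, with 95% Wilson intervals that cover counting error alone. Whole libraries stood at 26.1% and 26.6% in Mettl3-KO and at 39.4% in the 1 WT library at 0 h. The sources used here do not say if reads or single bases were counted as conversions, so a share is a relative measure.

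Wtap had labelled shares of 37.3% and 36.3% in Mettl3-KO and 59.6% in WT (56.9 to 62.2) at 0 h. Zc3h13 had 38.7% and 43.7% in Mettl3-KO and 63.1% in WT (58.8 to 67.2). Mettl14 had 42.2% and 42.1% in Mettl3-KO and 59.9% in WT (56.5 to 63.2). Virma had 41.4% and 36.5% in Mettl3-KO and 59.1% in WT, and Cbll1 had 33.7% and 30.3% in Mettl3-KO and 46.3% in WT. These 5 genes, and also Rbm15 and Rbm15b given next, were above the share of the whole library in both genotypes. How many of all tested genes lay above it was not counted, so nothing particular to these genes is read from it. Rbm15 had 38.4% and 34.3% in Mettl3-KO and 50.9% in WT. Rbm15b had the smallest gap, with 49.1% and 51.0% in Mettl3-KO and 58.1% in WT (54.7 to 61.5). Mettl16 was below its whole library in WT, at 36.8%, with 23.8% and 27.8% in Mettl3-KO. Label per total count of the same gene was tested as the genotype difference fitted at 0 h, from lines over hours through all 12 deep libraries. By edgeR 0 of the 9 passed (1, Mettl3, at an unadjusted p under 0.05), and 0.126% of tested genes did. That fit draws on all chase times, so it does not test the 0 h shares given above.

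The few Mettl3 tags left in Mettl3-KO held few conversions at 0 h, and more in replicate 2 at 1 h, a rise that was not tested. At 0 h 2 of 51 counts held conversions (3.92%, 95% interval 1.08 to 13.2), against 48.9% (45.4 to 52.4) in WT. At 1 h Mettl3-KO replicate 1 had 5 of 55 counts (9.09%, 95% interval 3.95 to 19.6), an interval that overlaps that of 0 h. Mettl3-KO replicate 2 had 10 of 34 (29.4%, 95% interval 16.8 to 46.2), and WT had 204 of 528 (38.6%). With the own total as offset, the log2 difference fitted at 0 h from a line through all chase times was -2.13 (SE 0.69). It did not pass by edgeR (adjusted p = 0.306), and the shares of the 0 h libraries alone were not tested.

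Per unit of total RNA in the library, labelled RNA at 0 h was lower for Mettl3 and did not differ detectably for the other 8 genes. Mettl3 fell by 7.20 on the log2 scale (SE 0.81, adjusted p = 7.46e-10). Lower calls made up 8.55% of the 12669 genes tested and higher calls 1.57%. Mettl3 passed the count filter of this test through its WT libraries, since its Mettl3-KO libraries held 0 to 10 conversion counts, so it had to differ. Rbm15 stood at 1.08 (SE 0.45, adjusted p = 0.122) and Zc3h13 at 0.92 (SE 0.49, adjusted p = 0.252), while Mettl16 stood at -0.37 (SE 0.43, adjusted p = 0.657). The median over all tested genes was -0.40, and 31.9% of them lay above 0, as did 5 of the 9 writer genes. With each gene's own total as offset these 5 stood below 0, from -0.48 (Rbm15) to -0.15 (Cbll1). With the conversion counts scaled by their own TMM factors, Rbm15 (1.53, adjusted p = 0.00780) and Zc3h13 (1.34, adjusted p = 0.0318) were called higher, as were 470 of the 12669 genes, where scaling by total counts called 199. Without WT 8 h replicate 2 Rbm15 was called higher too (1.15, adjusted p = 0.046).

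**Figure D3:**
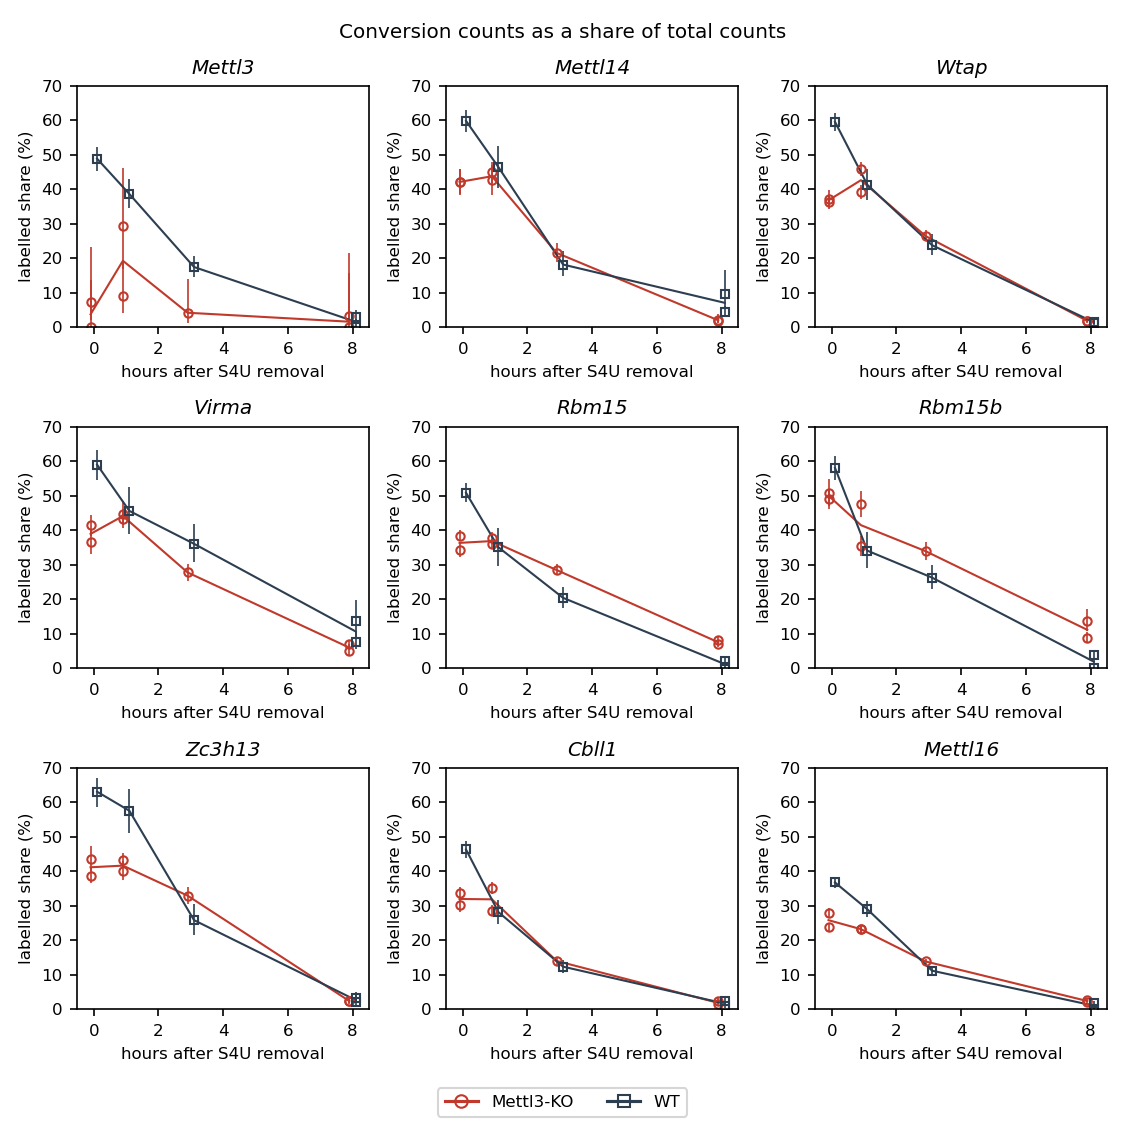
Conversion counts as a percent of total counts (y axis) against hours after S4U removal for each gene in the 12 deep libraries, with 95% Wilson intervals and lines through the group means (Mettl3-KO red circles, WT dark squares). The share is lower in Mettl3-KO at 0 h in all 9 panels. At 8 h Wtap, Rbm15, Rbm15b and Mettl16 lie higher in both Mettl3-KO libraries than in both WT libraries, and Mettl14 and Virma lie lower. Whole libraries at 8 h also lie higher in Mettl3-KO (4.90% and 4.97%) than in WT (4.52% and 3.72%). How many of all genes split in this way was not counted, so nothing particular to these genes is read from it. Intervals of the genotypes at 8 h overlap for Wtap, Mettl16, Mettl14 and Virma, and not for Rbm15 and Rbm15b.

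After S4U was removed, label was lost from all 9 genes in WT and from 8 in Mettl3-KO. Label loss was called for 91.3% of tested genes in WT and 89.1% in Mettl3-KO, so the counts of writer genes are those of nearly any gene. Mettl3 in Mettl3-KO did not pass (-0.31 log2 per hour, SE 0.17, adjusted p = 0.0845), at 20 conversion counts over 7 libraries. The Mettl3-KO calls rest on the 8 h libraries. Without both, 0 of 12649 genes passed by edgeR in Mettl3-KO (1207 at an unadjusted p under 0.05), whose chase then ended at 3 h, and the slopes of the 8 genes lay between -0.40 and -0.11 log2 per hour. Between 0 and 1 h shares in Mettl3-KO stayed level for several genes, which was not tested. Mettl14 had 42.2% and 42.1% at 0 h and 44.9% and 42.7% at 1 h in Mettl3-KO, against 59.9% and 46.5% in WT. Virma had 43.4% and 44.9% at 1 h in Mettl3-KO, not below its 41.4% and 36.5% at 0 h. Whole Mettl3-KO libraries were level as well, at 25.2% and 26.7% at 1 h, against 30.8% in WT 1 h replicate 1.

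The half-lives of label were fitted for each genotype. They are the hours in which fitted label per unit of total RNA falls by 50%, and growth of the cells was not corrected for. In WT the shortest were those of Wtap (1.32 h), Mettl3 (1.38 h), Rbm15 (1.59 h), Mettl16 (1.67 h), Cbll1 (1.70 h) and Rbm15b (1.77 h). Zc3h13 (1.93 h), Mettl14 (2.23 h) and Virma (3.098 h) were longer, against 1.78 h for the median of all tested genes. In Mettl3-KO Cbll1 (1.67 h), Mettl14 (1.78 h), Zc3h13 (1.85 h) and Wtap (1.86 h) were below the median of 2.11 h. Mettl16 (2.83 h), Virma (3.01 h), Rbm15 (3.19 h) and Rbm15b (3.34 h) were above it, as was Mettl3 (3.23 h), whose slope was not called. Virma thus had a long half-life in both genotypes, and the SE of these slopes was 0.06 to 0.10 log2 per hour for the 8 genes other than Mettl3, so close neighbours in the order are not resolved. The Mettl3-KO half-lives rest on the 8 h libraries. Without both, the median Mettl3-KO slope over all tested genes was -0.23 log2 per hour, against -0.47 with them.

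Rbm15 lost label more slowly in Mettl3-KO, the 1 call among the 9 genes. Its labelled shares in Mettl3-KO were 38.4% and 34.3% at 0 h, 37.7% and 36.1% at 1 h, 28.5% at 3 h, and 8.03% and 6.96% at 8 h. In WT they were 50.9% at 0 h, 35.1% at 1 h, 20.4% at 3 h, and 2.08% and 0.224% at 8 h. The Mettl3-KO shares started lower and ended higher. The difference in loss rate was 0.315 log2 per hour (SE 0.10, adjusted p = 0.0408), where a positive value means slower loss in Mettl3-KO. Slower loss was called for 5.05% of tested genes and faster loss for 0.3%. The call was lost with all 14 libraries (0.31, SE 0.11, adjusted p = 0.0994), where 2.4% of tested genes were slower, and without the 0 h libraries (0.27, adjusted p = 0.211). Without both Mettl3-KO 8 h libraries it stood at 0.40 (SE 0.22, adjusted p = 0.272), where the median over all tested genes was 0.32. By edgeR 0 genes of the whole table then passed, with 2798 at an unadjusted p under 0.05. It was also lost when any 1 of 7 libraries was left out: WT 0 h (0.31), WT 8 h replicate 2 (0.23), Mettl3-KO 0 h replicate 1 (0.33) and replicate 2 (0.29), Mettl3-KO 1 h replicate 1 (0.32), and Mettl3-KO 8 h replicate 1 (0.32) and replicate 2 (0.33). The values without a single library ran from 0.23 to 0.46, and the adjusted p over all alternatives from 0.00285 to 0.272. The lowest of these came with each gene's own total as the offset (0.35, SE 0.08), by which 5.86% of tested genes lost label more slowly.

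The other 8 genes had no call in loss rate. Rbm15b had 13.5% and 8.68% labelled at 8 h in Mettl3-KO, against 3.74% and 0% in WT, where a limit of 3 counts of the total of 159 is a share of 1.89%. The upper end of the 95% Wilson interval is 2.36%. Its difference was 0.27 (SE 0.11, adjusted p = 0.161), and 0.27 (SE 0.09, adjusted p = 0.0553) with its own total as the offset. It was 0.15 without WT 8 h replicate 2 and 0.46 without WT 8 h replicate 1, the ends of its range with one library left out. Mettl16 had 2.66% and 2.02% at 8 h in Mettl3-KO and 1.86% and 0.138% in WT, a difference of 0.25 (SE 0.09, adjusted p = 0.107). Without WT 8 h replicate 1 it was called slower (0.57, adjusted p = 0.00450). The WT libraries at 8 h thus differed more in ratio for these genes than as a whole (4.52% and 3.72%).

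Wtap stood at 0.22 (SE 0.11, adjusted p = 0.233), with 1.69% and 1.90% left at 8 h in Mettl3-KO and 1.501% and 1.323% in WT. Mettl14 was the 1 gene below -0.1, at -0.11 (SE 0.10, adjusted p = 0.574). Its shares at 8 h were 2.17% and 1.75% in Mettl3-KO and 4.35% and 9.74% in WT. Virma (-0.01, SE 0.10), Zc3h13 (-0.02, SE 0.11) and Cbll1 (-0.01, SE 0.10) lay near 0, which does not show that their rates were alike. Mettl3 stood at 0.41 (SE 0.29, adjusted p = 0.439). The median of the 8 genes other than Mettl3 was 0.105, against 0.0982 over all tested genes, and 0.22 with Mettl3. Without both Mettl3-KO 8 h libraries Mettl14 (0.05), Virma (0.21), Zc3h13 (0.31) and Cbll1 (0.20) stood above 0, at adjusted p-values of 0.375 to 0.904.

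**Figure D4:**
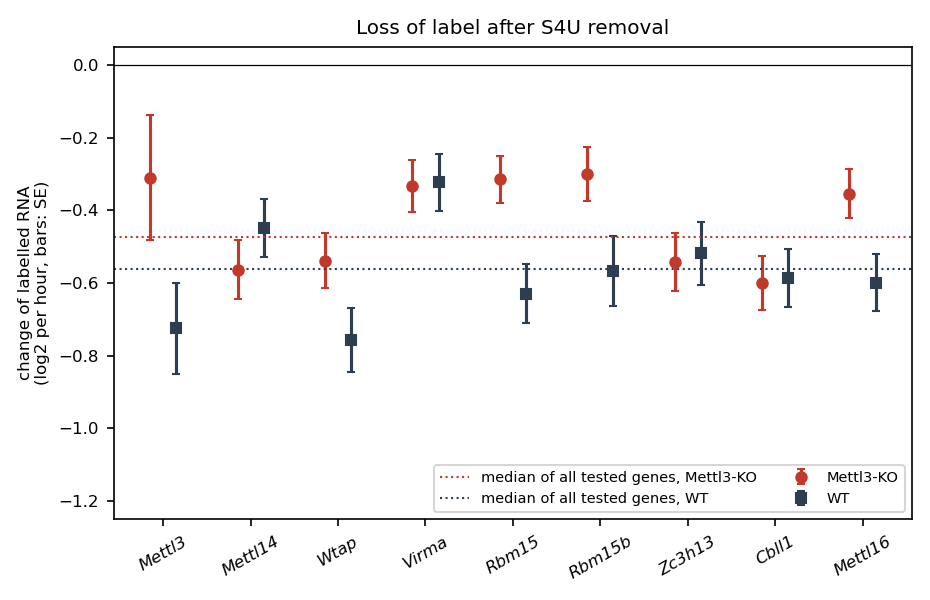
Fitted change of labelled RNA in log2 per hour with its SE for each gene in Mettl3-KO (red circles) and WT (dark squares), with dotted lines at the medians of all 12669 tested genes. Mettl3, Wtap, Rbm15, Rbm15b and Mettl16 lie nearer 0 in Mettl3-KO than in WT, with a called difference for Rbm15 alone, and Virma, Zc3h13 and Cbll1 lie close together.

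The authors' deposited table of half-lives, which gives no unit, lists 5 of the 9 genes, and in it all 5 are longer in Mettl3-KO. So are 83.4% of its 6985 genes. In the authors' deposited table Wtap has 3.70 in Mettl3-KO and 1.36 in WT, and Virma has 4.84 in Mettl3-KO and 3.12 in WT. Cbll1 has 2.21 in Mettl3-KO and 1.64 in WT, Zc3h13 2.49 in Mettl3-KO and 2.18 in WT, and Mettl14 2.32 in Mettl3-KO and 2.05 in WT in the authors' deposited table. By the fits above only Wtap of these genes was longer in Mettl3-KO (1.86 h, against 1.32 h in WT). Mettl14 was shorter in Mettl3-KO (1.78 h, against 2.23 h in WT). So were, by less, Virma (3.01 h and 3.098 h), Zc3h13 (1.85 h and 1.93 h) and Cbll1 (1.67 h and 1.70 h). None of these differences was called, and why the 2 sources differ was not tested.

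Genes that read, erase or supply the mark were given by lists. Of 12 m6A readers, 4 were higher and 2 lower in total RNA and 6 did not pass, with a median of 0.25, where 21.9% of tested genes were higher and 19.3% lower. The higher ones were Ythdf2 (1.53, SE 0.18), a cytoplasmic reader that promotes mRNA decay, Ythdc2 (1.19, SE 0.36), the nuclear reader Ythdc1 (0.74, SE 0.20) and Ythdf3 (0.47, SE 0.16). Igf2bp3 (-0.88, SE 0.14) and Igf2bp2 (-0.59, SE 0.17), RNA-binding proteins of one family, were lower. With all 14 libraries Ythdf3 (0.40, adjusted p = 0.148) and Igf2bp2 (-0.08, adjusted p = 0.930) did not pass. Of the erasers, the demethylase Fto was lower (-0.69, SE 0.15) and Alkbh5 did not pass.

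Of 4 further N6-methyladenosine methyltransferase genes and partners, Pcif1, which methylates the adenosine next to the mRNA cap, was lower (-1.47, SE 0.21). Mettl5, an 18S rRNA methyltransferase, was higher (0.58, SE 0.19, and 0.29 with adjusted p = 0.578 in all 14 libraries). Trmt112 and Zcchc4 did not pass. Of 3 genes of the S-adenosylmethionine cycle, Ahcy was higher (1.26, SE 0.20) and Mat2b lower (-0.57, SE 0.16, and -0.53 with adjusted p = 0.113 in all 14 libraries). Mat2a, whose mRNA is a METTL16 target, stood at 0.28 (SE 0.17, adjusted p = 0.211).

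In label loss, 2 of the 12 readers were slower in Mettl3-KO, Ythdf3 (0.34 log2 per hour, SE 0.09) and Hnrnpc (0.23, SE 0.07), where 5.05% of tested genes were slower. Trmt112 was slower too (0.38, SE 0.09), and none of these passed with all 14 libraries (adjusted p = 0.0623, 0.276 and 0.0522). The erasers and the S-adenosylmethionine genes had 0 calls in loss rate by edgeR, with Ahcy and Mat2a (2 of 5 genes) at an unadjusted p under 0.05. In labelled RNA fitted at 0 h Ythdf2 was higher (1.503, SE 0.38). Fto (-1.37), Pcif1 (-2.25), Prrc2a (-1.69), Hnrnpc (-1.56) and Igf2bp3 (-1.37) were lower. Of all tested genes 1.57% were higher and 8.55% lower. Without both Mettl3-KO 8 h libraries no gene was called in loss rate by edgeR. With all 14 libraries Fto (adjusted p = 0.0801), Hnrnpc (0.0553 as adjusted p) and Igf2bp3 (adjusted p = 0.186) did not pass.

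Genes with the most similar profile of total RNA were sought over the 12 deep libraries, by the root mean square difference of log2(CPM + 0.5), each gene centred on its own mean. No shared function is read from it. Mettl3 was closest to S100a6 (0.29) and Pla2g7 (0.33), against its own SD of 2.27. Wtap was closest to Tlcd1 (0.19) and Pla2g12a (0.20), Virma was close to Ctdp1 (0.11), and Rbm15 was closest to Rps25 (0.18) and Dcun1d1 (0.19). Zc3h13 was closest to Psmd4 (0.24) and Smad3 (0.25), Cbll1 to Kdm5b (0.11) and Zfp7 (0.13), and Mettl16 to Psmc1 (0.09) and Fasn (0.13). Mettl14 was closest to Rad50 (0.17) and Nob1 (0.17), and Rbm15b to Pwwp2a (0.17) and Arhgef10 (0.20). For Mettl14 and Rbm15b own SDs were 0.43 and 0.40. None of the 9 genes had another member among its 2 closest.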

How the data were processed

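Per the labels' protocols, RNA from equal cell numbers was treated with iodoacetamide (10 mM), and 100 ng went into 3′ tag libraries. The authors deposited whole-number counts per gene symbol, total and T>C conversion, in 36336 entries, of which 1 has no name (0.00707% to 0.0312% of a library) and was left out. Trim Galore 0.4.0, Subread 1.5.0 with featureCounts, edgeR 3.32.1 and the build mm10 are named in the submitters' processing notes. Aligner and conversion caller: not given in the sources used here. The authors also deposited normalized log2 values and a table of other values, half-lives with no unit.

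Groups came from the titles. Counts were tested with edgeR 4.0.16 (R 4.3.3, robust quasi-likelihood, TMM) in the 12 libraries with at least 1000000 counts. Total RNA was tested where 6 or more libraries had 10 or more counts, with chase time as a factor and genotype, or genotype by hours. Conversion counts (10 or more in 3 or more libraries) used the TMM-scaled total as library size, with genotype by hours. Tests of labelled RNA at 0 h are the genotype term of this fit, so they draw on all chase times. All 9 member genes passed both filters. WT has 1 deep library at 0, 1 and 3 h, assumed to vary like the others. SE is the effect over the square root of F. Adjusted p-values are over all genes tested. The genes named are all 9 members, for each the 2 nearest in total RNA (pseudocount 0.5), and called members of the lists, at most 4 per list and direction by smallest p. One of the nearest genes is not reported here. Mat2a, Alkbh5, Zcchc4 and genes named at an unadjusted p were named after their values were seen. Alternatives were DESeq2 1.42.0, limma 3.58.1 on the authors' log2 values and fits without both Mettl3-KO 8 h libraries (both added after seeing the data), other scalings, filters and libraries. The fits were first run on simulated counts with known changes. Members and lists were chosen with earlier results of these data known, the depth limit too. Gene positions are from RefSeq, GRCm38.p6.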

Additional observations from a re-analysis of the deposited data

Results flagged for a closer look

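Rbm15 lost label at a different rate in the 2 genotypes, with a difference of 0.315 log2 per hour (Mettl3-KO minus WT, edgeR adjusted p = 0.0408), which the alternatives below did not all keep.

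A library far from the others of its genotype was found in 2 of 18 sets of a gene and a genotype, and chance gives about 1 in 20. Wtap in WT 8 h replicate 1 (37.4 CPM) was low, with a gap of 0.715 of the WT range to the next library. Rbm15 in WT 1 h replicate 1 (42.4 CPM) was low, with a gap of 0.824. Leaving out any one library left both genes called higher in Mettl3-KO, at 0.91 to 1.16 for Wtap and 1.19 to 1.47 for Rbm15 on the log2 scale.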

How the results depend on the processing

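In total RNA, 5 genes were higher and 1 lower, and 4 to 5 were higher with any one library left out. All 14 libraries gave 3. DESeq2, other size factors, no count filter and the replicate block each gave 5 higher and 1 lower. Mettl14 stood at -0.0064 with all 14 libraries and between -0.19 and 0.20 with one left out. For the change over the chase Rbm15b stood at -0.0185 with all 14 libraries, at -0.0049 with the replicate block and between -0.0469 and 0.0777 with one left out, and Mettl14 between -0.0223 and 0.18. Replicate numbers share no batch in the labels, and deviations of same-numbered libraries correlated between -0.078 and 0.217 over 6 pairs of groups. The replicate block changed no count of calls among the 9 genes. Over all genes DESeq2 called 258 higher and 302 lower in the change over the chase, where edgeR called 35 and 45, and 1050 slower and 81 faster in label loss, where edgeR called 640 and 38.

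For labelled RNA fitted at 0 h, 2 genes were higher with the conversion counts' own TMM and 0 to 1 with one library left out. With the own total as offset 0 were lower, and Wtap (-0.36), Virma (-0.31), Rbm15 (-0.48), Zc3h13 (-0.43) and Cbll1 (-0.15) turned below 0. With the own TMM Mettl14 (0.22), Rbm15b (0.35) and Mettl16 (0.0674) turned above 0, as did Rbm15b with the replicate block (0.21). With one library left out Wtap ran from -0.0321 to 0.44 and Rbm15b from -0.47 to 0.10.

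Scaling conversion counts by their own TMM takes out the loss shared by all genes, by construction. It left 1 of the 9 genes lower in Mettl3-KO and 1 lower and 1 higher in WT. Over all 12669 genes it left 1379 lower and 1659 higher in Mettl3-KO and 403 lower and 679 higher in WT. In WT Mettl14 (0.0599) and Virma (0.19), and in Mettl3-KO Mettl3 (0.0738), Virma (0.0956), Rbm15 (0.12), Rbm15b (0.12) and Mettl16 (0.0725) then stood above 0. By limma on the authors' log2 values 5 of the 9 genes were lower in Mettl3-KO, as were 10487 of all 17163 genes.

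In loss rate 1 gene was slower, and 0 were with all 14 libraries, the own TMM, no 0 h libraries or limma on the authors' values, and 0 to 2 with one library left out. Zc3h13 (0.0529) and Cbll1 (0.0343) turned above 0 with the own total, and Virma (0.0809), Zc3h13 (0.084) and Cbll1 (0.11) by limma. With one library left out Virma ran from -0.0479 to 0.0376, Zc3h13 from -0.0686 to 0.0318 and Cbll1 from -0.0667 to 0.0783. Without both Mettl3-KO 8 h libraries (added after seeing the data), 0 genes were lower in Mettl3-KO and 0 slower. Mettl14 stood at -0.14 in total RNA, -0.0508 in its change over the chase and 0.0495 in loss rate, where Virma (0.21), Zc3h13 (0.31) and Cbll1 (0.20) also turned above 0. Cbll1 stood at 0.0112 in the change over the chase and Wtap at -0.20 in labelled RNA fitted at 0 h. Where not said, the cause was not tested. Depth limits Mettl3 in Mettl3-KO (14 to 55 counts) and the WT shares at 8 h.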
